A study of Homo sapiens with 24 samples.

Results

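The 10 genes described here belong to the ID, transforming growth factor beta (TGF-beta) and activin signalling system: ID1, ID2, ID3, SMAD6, SMAD7, BAMBI, INHBA, INHBB, FST and TGFBI. They were taken by symbol from a table of 29744 genes. The list was selected on measured values of these libraries, in which FST was lower in doubled cells of both lines. FST is therefore given as a description in these libraries, with no test.

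RNA was read by TAGseq, a method that sequences a tag near the 3′ end of polyadenylated transcripts, in 24 libraries. HCC1806 and MDA-MB-231 are established human triple-negative breast cancer cell lines. In each line, parental aneuploid cells kept as the control were set beside 3 whole-genome-doubled populations, which arose through cell fusion, mitotic slippage (exit from mitosis without division) or cytokinesis failure (failure of the daughter cells to separate). Doubled cells were isolated by flow sorting and expanded, and every group was grown for 48 hours in plates with no further treatment. Each of the 8 groups had 3 biological replicates. There is 1 doubled population per route and line, so the route and the population that stands for it cannot be told apart, and the p-values measure the spread between cultures of the same population.

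The libraries held 3060622 to 4030297 estimated counts in HCC1806 and 2455707 to 3837957 in MDA-MB-231. Levels are CPM, each count as a share of its library's total after scaling by trimmed mean of M values (TMM), and changes are log2 fold changes with their standard error (SE) from edgeR. A gene is called when its adjusted p is below 0.05 over all genes tested in that comparison. The lines matched their names: KRT5 had a mean of 425 CPM in HCC1806 controls and at most 1 count in any MDA-MB-231 library, and VIM had 2603 CPM in MDA-MB-231 controls and at most 7 counts in any HCC1806 library. CDH2, listed as a marker of MDA-MB-231, went against that list, at 44.7 CPM in HCC1806 controls and at most 5 counts in any MDA-MB-231 library. Of the 5 HCC1806 markers, 3 were called lower in HCC1806 fusion cells, namely KRT14 (-0.59), KRT17 (-0.43) and EPCAM (-0.14), and CDH2 was called lower there too (-0.71). KRT14 was also called lower in slippage (-0.63) and cytokinesis failure (-1.80), where KRT17 was called lower (-0.40) and KRT5 higher (0.16). The part of these markers in the results was not tested. Among markers of other cell types, CD3E, CDH5 and COL1A2 had no count in any library and PTPRC had at most 3. The endothelial list of 4 genes summed to 2.32 to 3.57 CPM in MDA-MB-231 controls, 4.70 to 7.70 in fusion, 2.60 to 6.88 in slippage and 5.09 to 7.58 in cytokinesis failure, and to at most 0.544 in HCC1806 libraries. PECAM1, its 1 tested gene, was called higher in MDA-MB-231 cytokinesis failure (1.49, edgeR adjusted p = 0.00822), and its part in the results was not tested. The immune list of 5 genes was carried by CD68. Its summed level was 36.4 to 39.2 CPM in HCC1806 controls, 36.47 to 39.96 in fusion, 29.8 to 32.7 in slippage and 26.4 to 30.7 in cytokinesis failure. In MDA-MB-231 that sum was 64.5 to 71.7 CPM in controls, 86.4 to 105 in fusion, 103 to 106 in slippage and 101 to 118 in cytokinesis failure, and the part of CD68 in the results was not tested. In MDA-MB-231, slippage replicate 3 and cytokinesis failure replicate 1 stood apart from their partner replicates. The chi-square of each such pair of libraries, divided by its degrees of freedom, was 2.34 to 2.55, and the next largest pair reached 1.92. Some of the results that use them are given below with and without them.

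Ligands of the TGF-beta family bind paired receptor kinases that phosphorylate SMAD transcription factors. TGF-beta and activin act mainly through SMAD2 and SMAD3, and bone morphogenetic proteins (BMPs) mainly through SMAD1 and SMAD5. ID1, ID2 and ID3 are helix-loop-helix proteins without a DNA-binding region, which hold E proteins away from their DNA sites, and they are classic BMP target genes. SMAD6 and SMAD7 are inhibitory SMADs and BAMBI is a receptor decoy without a kinase domain, all induced by the pathways they restrain. INHBA and INHBB encode the beta subunits of activins, follistatin (FST) is a secreted protein that binds and neutralises activin, and TGFBI is a secreted matrix protein induced by TGF-beta.

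The 250 bases before the start site are shown for 4 members, since ID1, ID3 and SMAD6 were lower together in MDA-MB-231 fusion cells and FST is the gene on which the choice rested. All 10 members had a RefSeq entry (GRCh38.p14), 9 of them with a single start site. The windows shown are chr20:31605039-31605288 on the plus strand for ID1, chr1:23559502-23559751 on the minus strand for ID3, chr15:66701986-66702235 on the plus strand for SMAD6 and chr5:53480379-53480628 on the plus strand for FST. Capitals mark matches to 4 motifs searched on both strands: GTCTAGAC, a palindromic SMAD element; GGCGCC, a GC-rich SMAD motif; CANNTG, the E-box; and TGACGT, the core of the cyclic AMP response element.
ID1: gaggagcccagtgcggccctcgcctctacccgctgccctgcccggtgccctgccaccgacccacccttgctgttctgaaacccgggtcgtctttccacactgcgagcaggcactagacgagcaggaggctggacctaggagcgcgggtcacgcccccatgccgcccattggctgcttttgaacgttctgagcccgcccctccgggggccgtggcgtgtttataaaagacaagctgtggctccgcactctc
ID3: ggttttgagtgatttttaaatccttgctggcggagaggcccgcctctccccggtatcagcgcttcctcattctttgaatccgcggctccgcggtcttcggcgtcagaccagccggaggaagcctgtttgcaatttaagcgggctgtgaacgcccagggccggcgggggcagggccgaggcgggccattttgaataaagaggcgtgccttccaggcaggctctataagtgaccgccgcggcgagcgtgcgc
SMAD6: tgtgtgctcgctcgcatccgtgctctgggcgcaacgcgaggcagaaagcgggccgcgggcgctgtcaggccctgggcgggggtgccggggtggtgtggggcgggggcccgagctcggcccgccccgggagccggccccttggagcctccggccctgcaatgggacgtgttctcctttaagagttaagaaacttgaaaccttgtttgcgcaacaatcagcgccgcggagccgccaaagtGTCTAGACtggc
FST: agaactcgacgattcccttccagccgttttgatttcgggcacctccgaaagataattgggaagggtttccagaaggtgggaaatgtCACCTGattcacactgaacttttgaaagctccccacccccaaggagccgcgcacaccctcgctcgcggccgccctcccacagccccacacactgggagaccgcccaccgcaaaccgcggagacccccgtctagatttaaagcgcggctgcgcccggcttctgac
The ID1 and ID3 windows held none of these letters. The SMAD6 window held GTCTAGAC with its first base at -12 from the start, a motif present in 64 of 35116 such windows (0.182%). The FST window held 1 E-box, CACCTG, at -164, and 61.8% of all windows held at least 1 E-box. The GC-rich motif occurred in 16.4% of windows and the cyclic AMP element core in 7.10%. Among the members not shown, BAMBI, INHBB and TGFBI held the GC-rich motif, and ID2 and SMAD7 held an E-box. Bases further than 250 from the start were not searched. These matches describe the letters only, and no binding was measured here.

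In MDA-MB-231 fusion cells ID1, ID3 and SMAD6 were lower than in the control, while in HCC1806 ID1 was higher in each doubled population. TGFBI was lower in each HCC1806 doubled population and higher in MDA-MB-231 slippage cells. INHBB was lower in HCC1806 fusion and cytokinesis failure cells and in MDA-MB-231 slippage and cytokinesis failure cells, and INHBA was lower in HCC1806 fusion and cytokinesis failure cells. FST was lower than its control in 5 of the 6 doubled populations and not in HCC1806 fusion cells.

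Of the 9 members other than FST, 4 were called in HCC1806 fusion against control (1 higher, 3 lower), where 10.9% of the 11467 genes tested were called (5.33% higher, 5.55% lower). Slippage gave 2 calls (1 higher, 1 lower) against a background of 3.33% (1.53% higher, 1.81% lower). Cytokinesis failure gave 6 (3 higher, 3 lower) against 17.0% (8.37% higher, 8.63% lower). In MDA-MB-231, 8 of the 9 were tested, since INHBA was too low. Fusion gave 3 calls, all lower, against 17.4% of 11424 genes (9.34% higher, 8.11% lower). Slippage gave 2 (1 higher, 1 lower) against 6.18% (3.27% higher, 2.91% lower), and cytokinesis failure 2 (1 higher, 1 lower) against 4.64% (2.29% higher, 2.35% lower). The members were chosen with these data in view, so the counts are descriptions of the list. The count for HCC1806 fusion was the least steady: it was 1 without control replicate 1, control replicate 3 or fusion replicate 2, 2 without control replicate 2 or fusion replicate 1, and 1 with DESeq2. That for HCC1806 slippage was 1 without slippage replicate 1.

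**Figure D1:**
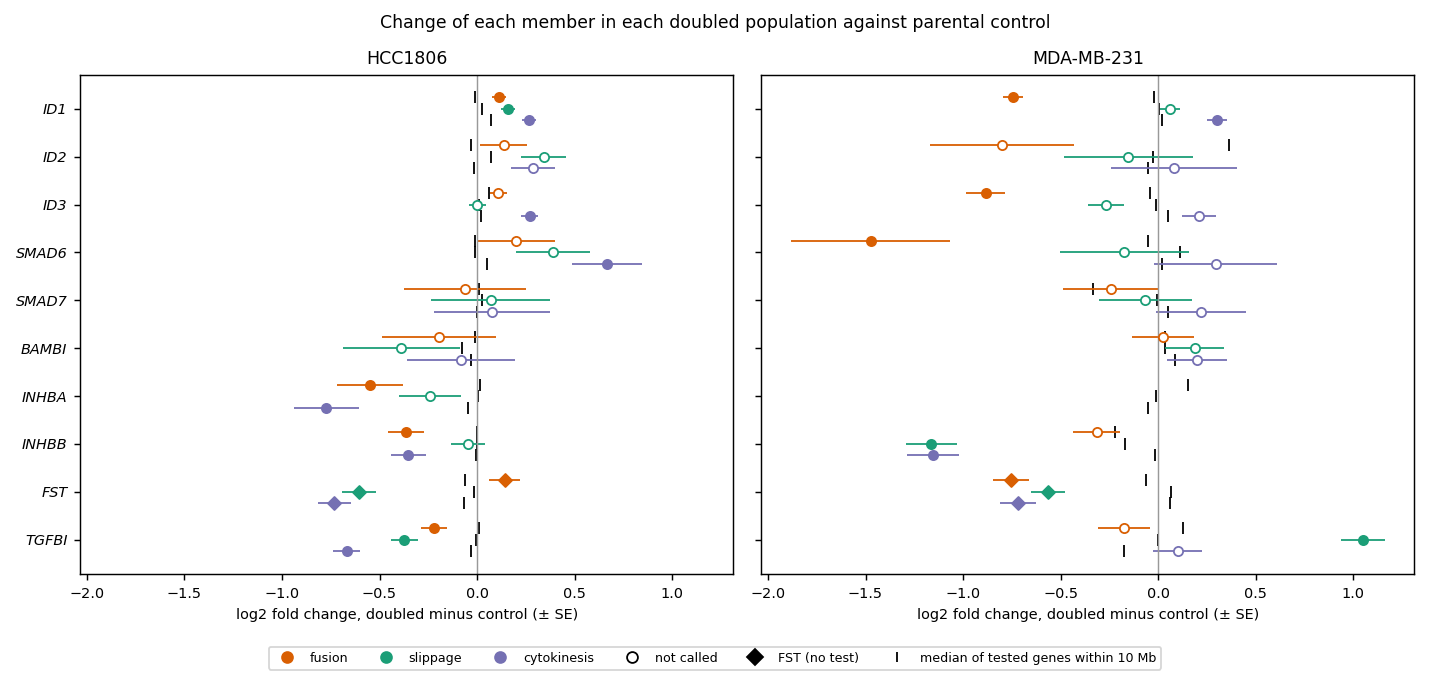
Log2 fold change of each member in each doubled population against its parental control (± SE, 3 replicates per group), with HCC1806 on the left and MDA-MB-231 on the right. Filled circles passed the edgeR test (adjusted p below 0.05), open circles did not, diamonds mark FST, which was not tested, and black ticks give the median change of tested genes within 10 Mb. ID1, ID3 and SMAD6 lie left of 0 in MDA-MB-231 fusion cells (-0.74, -0.88 and -1.47), and INHBA has no point in MDA-MB-231.

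ID1 lies on chromosome 20 at 31605289 to 31606510 (GRCh38.p14). In MDA-MB-231 its level was 421, 416 and 425 CPM in the 3 controls and 262, 259 and 234 CPM in the fusion libraries. The slippage libraries had 439, 425 and 451 CPM and the cytokinesis failure libraries 521, 506 and 525 CPM. Fusion libraries were thus the low ones and cytokinesis failure libraries the high ones, neither overlapping the controls, while slippage overlapped them. ID1 fell by 0.74 on the log2 scale in fusion (SE 0.052, edgeR adjusted p = 2.79e-14) and rose by 0.30 in cytokinesis failure (SE 0.050, adjusted p = 6.6e-05). The rise was 0.29 without both noisier libraries (adjusted p = 5.48e-06). Fusion lay below slippage by 0.80 (adjusted p = 1.74e-15, background 17.1%) and below cytokinesis failure by 1.04 (adjusted p = 1.81e-19, background 24.5%). Slippage lay below cytokinesis failure by 0.24 (adjusted p = 0.00219, and 0.0684 with limma, background 3.18%).

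HCC1806 showed no such drop of ID1. The controls had 796, 829 and 778 CPM, fusion 850, 856 and 887, slippage 929, 858 and 887, and cytokinesis failure 960, 973 and 962. All 9 doubled libraries exceeded the highest control. The rise was 0.27 ± 0.036 in cytokinesis failure (SE, edgeR adjusted p = 4.97e-09), 0.16 ± 0.036 in slippage (adjusted p = 0.00293) and 0.11 ± 0.036 in fusion (adjusted p = 0.0284). In cytokinesis failure, 19 of 89 tested genes within 10 Mb of ID1 were called higher and 6 lower, beside 8.37% and 8.63% of all genes. Their median change was 0.07, and their part in the result was not tested. The slippage call was lost without slippage replicate 1 (adjusted p = 0.0857) and with limma (adjusted p = 0.258). Leaving out control replicate 1, control replicate 3, fusion replicate 2 or fusion replicate 3 ended the fusion call, as did DESeq2, no filter and limma, at adjusted p of 0.0568 to 0.422. Cytokinesis failure lay above fusion by 0.15 (adjusted p = 0.000609, background 17.9%) and above slippage by 0.11 (adjusted p = 0.0440, background 6.80%), the latter lost in 7 alternatives, 5 of them a single library left out (either of slippage replicates 2 and 3 or any cytokinesis failure replicate), at adjusted p of 0.0547 to 0.265. The fusion change differed between the lines by -0.85 ± 0.062 (MDA-MB-231 minus HCC1806, SE, edgeR adjusted p = 2.3e-19). For this difference 5.48% of 12563 genes were called lower, and 1513 genes were called in either direction.

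ID3, on chromosome 1 at 23557926 to 23559501, followed ID1 in MDA-MB-231 fusion cells. Its controls had 97.8, 91.7 and 88.5 CPM, fusion 57.9, 53.2 and 39.97, slippage 77.7, 71.6 and 81.7, and cytokinesis failure 110, 116 and 95.5. All fusion and slippage libraries lay below the lowest control. ID3 fell by 0.88 in fusion (SE 0.099, edgeR adjusted p = 2.4e-08), and the slippage value of -0.27 did not pass (SE 0.091, adjusted p = 0.0749). It did pass without both noisier libraries (-0.31, adjusted p = 0.0461) and with no filter on low counts (-0.27, adjusted p = 0.0201). Fusion lay below slippage by 0.62 (adjusted p = 2.95e-05) and below cytokinesis failure by 1.09 (adjusted p = 7.63e-11), and slippage below cytokinesis failure by 0.48 (adjusted p = 0.00112, and 0.0704 with limma).

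In HCC1806, ID3 had 369, 350 and 357 CPM in controls, 389, 388 and 383 in fusion, 375, 333 and 367 in slippage, and 429, 423 and 449 in cytokinesis failure. Only cytokinesis failure passed the test among these 3 routes, with a rise of 0.27 ± 0.043 (SE, edgeR adjusted p = 8.96e-07). It also lay above fusion by 0.16 (adjusted p = 0.00378) and above slippage by 0.27 (adjusted p = 3.24e-06). The fusion change of ID3 differed between the lines by -0.99 ± 0.10 (adjusted p = 3.75e-11), and the slippage change by -0.27 ± 0.097, which did not pass (adjusted p = 0.119).

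ID2, on chromosome 2 at 8682056 to 8684461, passed the test in none of the 6 edgeR comparisons with controls. In HCC1806 the controls had 29.9, 32.6 and 31.5 CPM, fusion 28.6, 40.3 and 33.9, slippage 39.5, 40.1 and 39.0, and cytokinesis failure 37.6, 36.7 and 40.3. The slippage and cytokinesis failure libraries all lay above the controls, with changes of 0.34 ± 0.12 (SE, adjusted p = 0.0867) and 0.29 ± 0.11 (adjusted p = 0.0657). With limma the cytokinesis failure value passed (0.32, adjusted p = 0.0388). In MDA-MB-231 ID2 had 11 to 20 counts per control library and 6 to 9 per fusion library, or 3.82 ± 1.17 and 2.20 ± 0.42 CPM (SD, n = 3). That difference of -0.80 ± 0.37 (SE) had an adjusted p of 0.134 with edgeR and passed with limma (-0.62, adjusted p = 0.0163), while 34 tested genes within 10 Mb of ID2 had a median change of 0.36 in the same comparison.

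**Figure D2:**
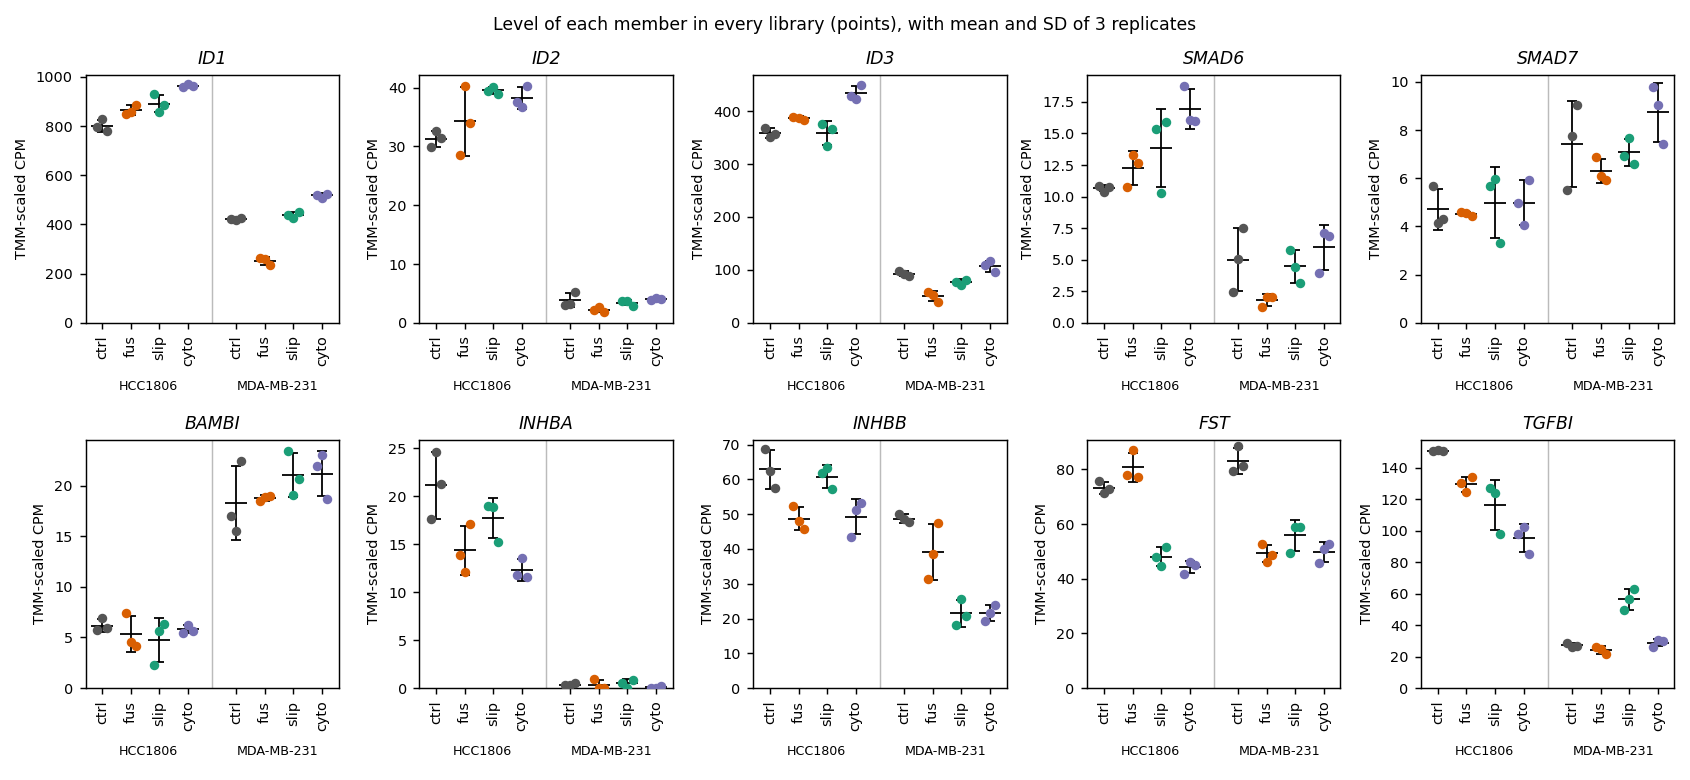
Level of each of the 10 members in TMM-scaled CPM (linear axis from 0) in all 24 libraries, 3 points per group, with the mean and SD; ctrl, fus, slip and cyto stand for control, fusion, slippage and cytokinesis failure. ID1 and ID3 sit lowest in MDA-MB-231 fusion libraries (ID1 at 234 to 262 CPM) within that line, and FST sits highest in HCC1806 fusion libraries within that line (77.4 to 87.0 CPM).

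The inhibitory SMAD gene SMAD6, on chromosome 15 at 66702236 to 66782849, carried the largest member change in MDA-MB-231 fusion cells on few counts. Controls had 2.47, 5.06 and 7.48 CPM (9, 17 and 29 counts) and fusion libraries 1.25, 2.04 and 2.07 CPM (4, 7 and 7 counts). The groups did not overlap, but the controls spread more widely than any other SMAD6 group of that line. SMAD6 fell by 1.47 (SE 0.41, edgeR adjusted p = 0.00909). Without control replicate 3 the value was -1.04 (adjusted p = 0.141), and without fusion replicate 1 it was -1.28 (adjusted p = 0.0578), so the call rested on either library. Slippage libraries had 5.78, 4.46 and 3.15 CPM and cytokinesis failure libraries 3.92, 7.09 and 6.89, both overlapping the controls. Fusion lay 1.77 below cytokinesis failure (SE 0.40, adjusted p = 0.000781). It lay 1.30 below slippage (SE 0.42, adjusted p = 0.0252), a call lost with DESeq2, with limma and when fusion replicate 1, fusion replicate 2, slippage replicate 1 or slippage replicate 2 was left out, at adjusted p of 0.0548 to 0.118.

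In HCC1806 the SMAD6 controls had 10.8, 10.4 and 10.8 CPM, fusion 10.8, 13.3 and 12.7, slippage 15.3, 10.3 and 15.9, and cytokinesis failure 18.8, 16.0 and 16.0. Cytokinesis failure libraries all lay above the controls, and SMAD6 rose there by 0.66 ± 0.18 (SE, edgeR adjusted p = 0.00461, and 0.0559 with DESeq2). The fusion change differed between the lines by -1.67 ± 0.44 (adjusted p = 0.00468), and by -1.23 without MDA-MB-231 control replicate 3, which no longer passed (adjusted p = 0.0918).

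SMAD7, on chromosome 18 at 48919853 to 48950965, and BAMBI, on chromosome 10 at 28677521 to 28682932, passed the test in no comparison of a doubled population with its control. SMAD7 group means ranged from 4.53 to 4.99 CPM in HCC1806 and from 6.31 to 8.75 CPM in MDA-MB-231. BAMBI group means ranged from 4.73 to 6.18 CPM in HCC1806 and from 18.3 to 21.2 CPM in MDA-MB-231. Single libraries had 8 to 24 counts of BAMBI in HCC1806 and 11 to 37 counts of SMAD7 over both lines, so small changes were not detectable at this depth. In MDA-MB-231 fusion cells, 37 tested genes within 10 Mb of SMAD7 had a median change of -0.33, and 16 of them were called lower.

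FST, on chromosome 5 at 53480629 to 53487134, had 75.7, 71.4 and 72.9 CPM in HCC1806 controls. Its fusion libraries had 78.1, 87.0 and 77.4 CPM, slippage 48.0, 44.7 and 51.6, and cytokinesis failure 41.8, 45.9 and 45.2. Fusion libraries lay above every control, and those of the other routes lay below. Against the control the fusion cells differed in FST by 0.14 ± 0.078, the slippage cells by -0.60 ± 0.087 and the cytokinesis failure cells by -0.73 ± 0.086 (log2, SE). The clause by which the genes were chosen thus held for 2 of the 3 HCC1806 populations. These levels are shares of each library, and FST RNA per cell was not measured. A smaller share in all cells and fewer cells that express FST cannot be told apart in bulk RNA.

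In MDA-MB-231 the controls had 79.4, 88.5 and 81.3 CPM of FST. Fusion libraries had 52.6, 46.2 and 48.9 CPM, slippage 49.4, 59.0 and 59.1, and cytokinesis failure 45.9, 50.8 and 52.9. All 9 doubled libraries lay below the lowest control. The fusion cells differed from the control by -0.76 ± 0.092, the slippage cells by -0.57 ± 0.089 and the cytokinesis failure cells by -0.72 ± 0.091 (log2, SE). Without both noisier libraries the slippage value was -0.60 and the cytokinesis failure value -0.68. Tested genes within 10 Mb of FST had medians between -0.07 and 0.06 in the 6 comparisons.

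Among the doubled populations themselves, differences in FST are given without a test, since the same libraries entered its choice. In HCC1806 all fusion libraries lay above those of the other routes, by 0.74 ± 0.086 over slippage and 0.87 ± 0.085 over cytokinesis failure (log2, SE). Slippage and cytokinesis failure libraries overlapped, at a difference of 0.13 ± 0.094. In MDA-MB-231 the differences were -0.19 ± 0.098 for fusion minus slippage, -0.036 ± 0.10 for fusion minus cytokinesis failure and 0.15 ± 0.097 for slippage minus cytokinesis failure, and the libraries of each pair overlapped. In order of mean level, HCC1806 ran from fusion (80.8 CPM) through control (73.3) and slippage (48.1) to cytokinesis failure (44.3), and MDA-MB-231 from control (83.1) through slippage (55.8) and cytokinesis failure (49.9) to fusion (49.2).

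INHBA, the activin A subunit gene on chromosome 7 at 41685114 to 41705406, was measurable in HCC1806. Controls had 17.6, 24.6 and 21.2 CPM, fusion 13.8, 12.1 and 17.1, slippage 19.0, 18.9 and 15.3, and cytokinesis failure 11.7, 13.6 and 11.6. The fusion and cytokinesis failure libraries all lay below the lowest control, and slippage overlapped it. INHBA fell by 0.77 in cytokinesis failure (SE 0.17, edgeR adjusted p = 0.000299) and by 0.55 in fusion (SE 0.17, adjusted p = 0.0191). The fusion call was lost with DESeq2 and when control replicate 2, control replicate 3, fusion replicate 1 or fusion replicate 2 was left out, at adjusted p of 0.0628 to 0.137. Slippage exceeded cytokinesis failure by 0.53 (adjusted p = 0.0443), which was lost in 7 alternatives, among them each of 4 libraries left out (slippage replicates 1 and 2, cytokinesis failure replicates 1 and 3), at adjusted p of 0.0600 to 0.192. In MDA-MB-231 each library had 0 to 3 counts of INHBA, and no change was detectable.

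INHBB, the activin B subunit gene on chromosome 2 at 120346136 to 120351803, was lower in MDA-MB-231 cells of 2 routes. Controls had 50.01, 48.55 and 47.73 CPM, fusion 31.3, 38.7 and 47.4, slippage 18.2, 25.8 and 20.7, and cytokinesis failure 19.2, 21.51 and 24.002. Every doubled library lay below the lowest control. INHBB fell by 1.16 in slippage (SE 0.13, edgeR adjusted p = 5.49e-08) and by 1.15 in cytokinesis failure (SE 0.13, adjusted p = 6.48e-08). Without both noisier libraries these values were -1.13 and -1.10. Fusion, at -0.31 ± 0.12, did not pass (adjusted p = 0.0638), but did without fusion replicate 3 (-0.47, adjusted p = 0.00974), without both noisier libraries (adjusted p = 0.0325) and with no filter (adjusted p = 0.045). Fusion lay above slippage by 0.85 (adjusted p = 1.68e-05) and above cytokinesis failure by 0.84 (adjusted p = 1.42e-05). The 52 tested genes within 10 Mb of INHBB had a median change of -0.22 in the fusion cells, -0.17 after slippage and -0.02 after cytokinesis failure, and their part in the result was not tested.

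The HCC1806 routes ordered INHBB differently. Controls had 68.8, 62.4 and 57.5 CPM, fusion 52.3, 48.2 and 45.7, slippage 62.0, 63.3 and 57.3, and cytokinesis failure 43.6, 51.1 and 53.2. Fusion and cytokinesis failure libraries lay below the controls. INHBB fell by 0.37 in fusion (SE 0.093, edgeR adjusted p = 0.00356, and 0.0640 without control replicate 1) and by 0.35 in cytokinesis failure (SE 0.090, adjusted p = 0.00243). The latter call was lost with limma and without control replicate 1 or cytokinesis failure replicate 1, at adjusted p of 0.0506 to 0.0666. Slippage exceeded fusion by 0.32 (adjusted p = 0.0169, background 9.23%) and cytokinesis failure by 0.31 (adjusted p = 0.0228). The former call was lost with DESeq2, with limma and on leaving out either of fusion replicates 2 and 3 or of slippage replicates 1 and 2 (adjusted p of 0.0637 to 0.135). The latter was lost with DESeq2, with limma and on leaving out either of slippage replicates 1 and 2 or cytokinesis failure replicate 1 (adjusted p of 0.0870 to 0.235). The change of INHBB differed between the lines by -1.12 ± 0.16 in slippage (adjusted p = 4.22e-07, background 3.54%) and by -0.81 ± 0.16 in cytokinesis failure (adjusted p = 0.000218, background 6.53%).

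TGFBI, on chromosome 5 at 136028988 to 136063818, was at 151 CPM in each of the 3 HCC1806 controls. Fusion libraries had 130, 124 and 134 CPM, slippage 127, 124 and 98.0, and cytokinesis failure 97.9, 102 and 85.2. All 9 doubled libraries lay below the controls. TGFBI fell by 0.67 in cytokinesis failure (SE 0.069, edgeR adjusted p = 1.91e-12), by 0.37 in slippage (SE 0.069, adjusted p = 0.000147, and 0.0738 with limma) and by 0.22 in fusion (SE 0.068, adjusted p = 0.0213). The fusion call was lost with DESeq2, with limma and without any single control replicate or fusion replicate 1 or 2, at adjusted p of 0.0567 to 0.140. Cytokinesis failure lay below fusion by 0.45 (adjusted p = 9.22e-07) and below slippage by 0.30 (adjusted p = 0.00458). The latter call was lost with limma and without slippage replicate 1 or 2 or cytokinesis failure replicate 3, at adjusted p of 0.0597 to 0.263.

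In MDA-MB-231 the slippage population stood out for TGFBI, at 49.7, 56.5 and 63.1 CPM. Controls had 28.9, 26.2 and 26.8 CPM, fusion 26.3, 24.7 and 21.6, and cytokinesis failure 26.3, 30.8 and 29.6, and the fusion and cytokinesis failure libraries each overlapped the controls. TGFBI rose by 1.05 in slippage (SE 0.11, edgeR adjusted p = 1.23e-08), and by 0.97 without both noisier libraries (adjusted p = 2.19e-09). Slippage exceeded fusion by 1.23 (adjusted p = 1.24e-10) and cytokinesis failure by 0.95 (adjusted p = 1.09e-07). The change differed between the lines by 1.42 ± 0.13 in slippage (SE, adjusted p = 3.25e-13) and by 0.76 ± 0.14 in cytokinesis failure (adjusted p = 0.0001).

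The mean of the 3 doubled populations minus control gave 5 calls of 9 in HCC1806 (background 9.69%) and 3 of 8 in MDA-MB-231 (background 6.06%). In HCC1806 ID1 rose by 0.18 (edgeR adjusted p = 3.23e-06) and TGFBI fell by 0.42 (adjusted p = 1.31e-08). ID3 (0.13), INHBA (-0.52) and INHBB (-0.26) also passed, but were lost in some alternatives: ID3 with DESeq2, with limma and without control replicate 2 or 3, INHBA without control replicate 2 (adjusted p = 0.0896), and INHBB with DESeq2, with limma and without control replicate 1. In MDA-MB-231 INHBB fell by 0.88 (adjusted p = 4.72e-08), ID3 fell by 0.31 (adjusted p = 0.00699, lost with limma and without control replicate 1 or 2) and TGFBI rose by 0.32 (adjusted p = 0.0477). That TGFBI call was lost in 12 alternatives, 9 of them a single library left out, and with the replicate block (adjusted p = 0.0702). The HCC1806 count was 3 without control replicate 2, and the MDA-MB-231 count was 1 without control replicate 1 or 2. The MDA-MB-231 count was 4 without both noisier libraries and 4 with the stricter filter. ID1 also passed in these 2 alternatives (-0.14, edgeR adjusted p = 0.0106, and -0.13, adjusted p = 0.0487). For FST this mean difference came to -0.40 ± 0.068 for HCC1806 cells and -0.68 ± 0.072 for MDA-MB-231 cells (log2, SE).

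Between the parental lines the 8 members other than FST and INHBA were all called, where 76.2% of 12563 genes were called. Relative to HCC1806 controls, MDA-MB-231 controls had less ID1 by 0.93, ID2 by 3.00, ID3 by 1.95, SMAD6 by 1.07, INHBB by 0.37 and TGFBI by 2.46 on the log2 scale (edgeR adjusted p from 3.7e-39 to 0.000831). INHBB was lost with limma (adjusted p = 0.189). INHBA had 212 counts over the 3 HCC1806 controls and 4 over the 3 MDA-MB-231 controls, a ratio of 56.9 in CPM (95% exact interval 21.9 to 211, counting error only). BAMBI was higher in MDA-MB-231 by 1.58 (adjusted p = 2.22e-10), and the 48 tested genes within 10 Mb of it had a median difference of 1.09. SMAD7 was higher by 0.65 (adjusted p = 0.0231), a call lost with DESeq2 and without replicate 2 or 3 of either control, at adjusted p of 0.0517 to 0.153. FST, not tested, differed by 0.18.

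The wider pathway was read through 8 lists holding 98 symbols of ligands, receptors, SMADs, extracellular and intracellular regulators, target genes and ID partners, of which 64 were tested in HCC1806 and 60 in MDA-MB-231. In HCC1806 fusion 2 were called higher and 14 lower, where 5.33% and 5.55% of all genes were. Slippage had 1 higher and 3 lower (1.53% and 1.81% of all genes) and cytokinesis failure 5 higher and 12 lower (8.37% and 8.63%). In MDA-MB-231 fusion 5 were called higher and 19 lower (9.34% and 8.11% of all genes), in slippage 7 and 4 (3.27% and 2.91%), and in cytokinesis failure 5 and 6 (2.29% and 2.35%). The median change over the listed genes tested was -0.14, -0.06 and -0.07 for fusion, slippage and cytokinesis failure in HCC1806, and -0.16, -0.007 and 0.05 in MDA-MB-231. Over all genes tested it lay between -0.003 and 0.002 in each of the 6.

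Of 14 tested targets of TGF-beta and activin other than TGFBI, 8 were called lower and none higher in HCC1806 fusion (median -0.33), beside 5.55% of all genes called lower. In slippage 3 were called lower and 1 higher (median -0.12), beside 1.81% and 1.53% of all genes, and in cytokinesis failure 6 and 2 (median -0.23), beside 8.63% and 8.37%. FN1, which encodes fibronectin, went from 21.2 ± 2.14 CPM in controls (SD, n = 3) to 8.76 ± 0.695 after fusion, 12.6 ± 1.80 after slippage and 13.1 ± 2.99 after cytokinesis failure. FN1 passed in each route, although the slippage call was lost with DESeq2, with limma and without slippage replicate 3 (adjusted p of 0.0599 to 0.0729).

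In MDA-MB-231 fusion, 6 of 14 of these targets were called lower and 1 higher (median -0.29), beside 8.11% and 9.34% of all genes. Slippage had 1 lower and 3 higher (median 0.11), beside 2.91% and 3.27%, and cytokinesis failure 3 lower and 2 higher (median 0.06), beside 2.35% and 2.29%. FN1 had 97.9 ± 5.75 CPM in controls, 58.4 ± 5.14 after fusion, 147 ± 7.35 after slippage and 170 ± 0.236 after cytokinesis failure (SD, n = 3), so it fell by 0.74 in fusion and rose by 0.59 and 0.80 in the other routes.

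**Figure D3:**
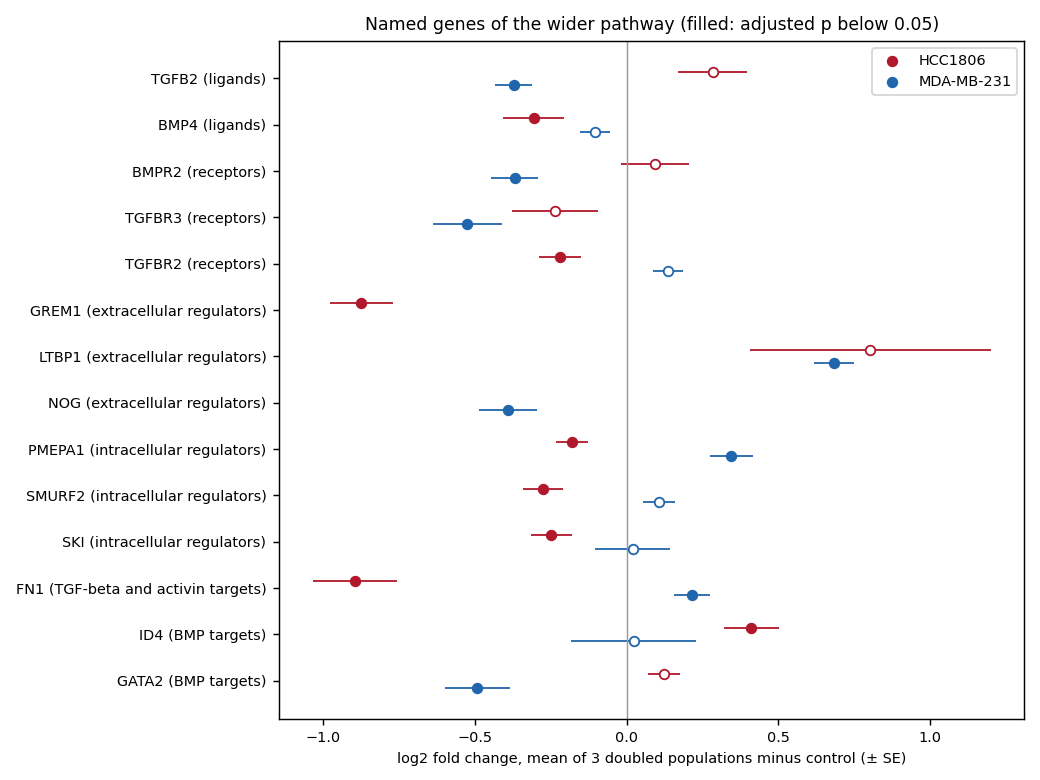
Log2 fold change (± SE) of genes named from the wider pathway lists, mean of the 3 doubled populations minus control, with HCC1806 in red and MDA-MB-231 in blue; filled points passed the edgeR test. FN1 lies left of 0 in HCC1806 (-0.90) and right of 0 in MDA-MB-231 (0.22). The MDA-MB-231 value averages a fall in fusion and rises in the other routes. Its call was lost with DESeq2, with limma and without control replicate 1 or 3 (adjusted p of 0.0639 to 0.295). Other filled points were also lost in some alternatives, among them BMP4 (9 alternatives) and TGFBR2 (5 alternatives) in HCC1806.

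BMP target genes outside the members were few. ID4, another ID family gene, rose in HCC1806 fusion by 0.47 (edgeR adjusted p = 0.00155) and in cytokinesis failure by 0.54 (adjusted p = 5.29e-05), from 30.6 ± 0.684 CPM in controls to 42.1 ± 3.23 and 44.6 ± 1.42 (SD, n = 3). In MDA-MB-231 fusion, 2 of the 3 tested were called lower, beside 8.11% of all genes. GATA2, a zinc-finger transcription factor gene, went from 28.2 ± 2.91 to 12.1 ± 1.10 CPM. ATOH8, named after its values were seen, fell by 1.29 (adjusted p = 0.0427), a call lost in 7 alternatives (adjusted p of 0.0579 to 0.173), among them the replicate block, both noisier libraries left out, and each of control replicates 2 and 3 and fusion replicates 2 and 3.

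Of 10 receptor genes tested in MDA-MB-231, 5 were called lower and none higher in fusion (median -0.33), beside 8.11% of all genes called lower. In slippage 2 were called lower (median -0.13, 2.91% of all genes), namely BMPR2 and ACVR2A. That ACVR2A call was lost in 10 alternatives, among them each of 6 libraries left out (adjusted p of 0.0543 to 0.184). In cytokinesis failure TGFBR3 was called lower and TGFBR2, a TGF-beta type II receptor gene, higher (median 0.06), beside 2.35% and 2.29% of all genes. The TGFBR3 call was lost in 8 alternatives (adjusted p of 0.0614 to 0.186) and the TGFBR2 call with limma (adjusted p = 0.106). In HCC1806, 2 of 10 were called lower in fusion, beside 5.55% of all genes, and none in the other routes. They were TGFBR3 and TGFBR2. This TGFBR2 call was lost with DESeq2, with limma and without fusion replicate 1 or 2 (adjusted p of 0.0580 to 0.119). TGFBR3, the co-receptor betaglycan, fell by 0.85 in MDA-MB-231 fusion (SE 0.15, edgeR adjusted p = 4.85e-05) and by 0.78 in HCC1806 fusion (SE 0.19, adjusted p = 0.00205). BMPR2, the BMP type II receptor gene, went from 53.9 ± 1.53 CPM to 37.5 ± 2.24 in MDA-MB-231 fusion and 37.1 ± 1.11 in slippage (SD, n = 3), and the slippage call was lost with limma (adjusted p = 0.0552). The others called in MDA-MB-231 fusion, named after their values were seen, were TGFBR1 (-0.33), ACVR1 (-0.43) and ACVR2A (-0.86). TGFBR1 was lost with DESeq2 and without control replicate 1 or fusion replicate 2, ACVR2A with DESeq2 and without control replicate 3 or fusion replicate 1, and ACVR1 in 9 alternatives, which include each of the 6 libraries left out in turn (adjusted p of 0.0523 to 0.202).

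The named ligand and regulator genes were tested within each line. TGFB2, a TGF-beta ligand gene, fell in MDA-MB-231 fusion by 0.38 (edgeR adjusted p = 0.000346) and cytokinesis failure by 0.53 (adjusted p = 8.99e-06), and rose in HCC1806 cytokinesis failure by 0.73 (adjusted p = 7.2e-06). BMP4, a BMP ligand gene, fell in HCC1806 fusion by 0.72, from 33.7 ± 2.69 to 20.5 ± 2.51 CPM (SD, n = 3). GREM1, a secreted BMP antagonist, went from 38.8 ± 7.27 CPM in HCC1806 controls to 11.8 ± 1.46 in fusion and 17.9 ± 1.80 in cytokinesis failure, both called, and had no count in any MDA-MB-231 library. LTBP1, which anchors latent TGF-beta in the matrix, rose in MDA-MB-231 by 0.61 after fusion, 0.76 after slippage and 0.69 after cytokinesis failure. In HCC1806 it rose by 1.33 in cytokinesis failure (edgeR adjusted p = 0.0197), from 1.44 to 3.78 CPM, a call lost with DESeq2 and on leaving out control replicate 1, control replicate 2 or cytokinesis failure replicate 3 (adjusted p of 0.0509 to 0.125). NOG, another BMP antagonist, fell by 0.74 in MDA-MB-231 cytokinesis failure (edgeR adjusted p = 0.00011). PMEPA1, a TGF-beta-induced inhibitor of the pathway, rose by 0.57 in MDA-MB-231 slippage and 0.46 in cytokinesis failure and fell by 0.38 in HCC1806 cytokinesis failure. SMURF2, a ubiquitin ligase that acts on SMADs and receptors, fell by 0.39 in HCC1806 cytokinesis failure (edgeR adjusted p = 0.000159). It was also called lower in HCC1806 fusion, lost with DESeq2 and without fusion replicate 1 (adjusted p of 0.0514 to 0.0691). In MDA-MB-231 fusion SMURF2 was called higher, a call lost with limma (0.13, adjusted p = 0.274). SKI, a co-repressor of SMADs, fell by 0.45 in HCC1806 fusion (edgeR adjusted p = 9.13e-05).

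Genes with the group pattern most like FST and most like ID1 were found among 9659 genes, by the root mean square difference of the 8 group means of log2 CPM after removal of each line's mean. For FST, whose own root mean square about the line means was 0.34, the nearest were POLR3G (0.17), TUBE1 (0.17), GAR1 (0.18), HBEGF (0.19) and PRICKLE3 (0.19), against a median of 0.36 over all genes. For ID1, with its own value of 0.28, they were GAS2L1 (0.05), SKIL (0.07), METRNL (0.08), CTPS2 (0.08) and RHBDF2 (0.08), against a median of 0.30. SKIL, which encodes a SMAD co-repressor, had 21.1 ± 1.30 CPM in MDA-MB-231 controls and 11.7 ± 1.38 in fusion (SD, n = 3), a difference that its likeness to ID1 selects for. The groups share libraries, so this likeness is a description.

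**Figure D4:**
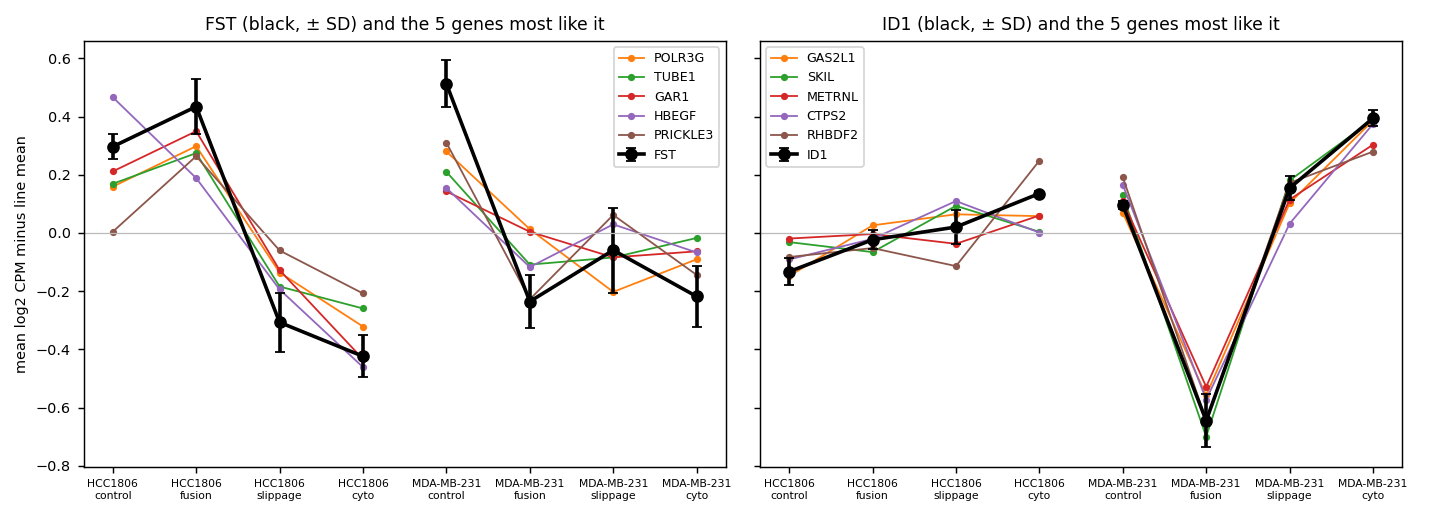
Mean log2 CPM minus the mean of the line for the 8 groups (x axis), for FST (left, black, ± SD of 3 replicates) and ID1 (right, black) and the 5 genes most like each (colours). The ID1 panel shows the drop in MDA-MB-231 fusion shared by GAS2L1 (-0.56), SKIL (-0.70), METRNL (-0.53), CTPS2 (-0.57) and RHBDF2 (-0.64).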

How the data were processed

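Estimated counts per gene and length-scaled TPM values were deposited by the authors. STAR and Salmon are named without versions, with GRCh38 (hg38) as the build, per the submitters' processing notes. The annotation, the strand setting and the use of molecular identifiers are not given in the sources used here, so overlapping genes were not resolved. The members and the gene lists were chosen with earlier results of these data known.

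The deposited estimated counts (4.41% of values not whole) were rounded. Genes were filtered with filterByExpr and scaled by TMM, and edgeR 4.0.16 (R 4.3.3) ran quasi-likelihood tests with robust dispersion and Benjamini-Hochberg adjustment over all genes tested. Each line was fitted on its 12 libraries. Differences between the lines, and the parental comparison, used 1 fit of all 24 libraries. No p-value is given for FST, since its choice used these libraries. The fit of fusion minus control was tested on counts simulated with the fitted dispersions, so this is no independent check. For HCC1806 and MDA-MB-231, 58 and 57 of 100 log2 changes of 0.5 were recovered. For changes of 1 these were 80 and 89 of 100. False calls numbered 11 and 13.

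Text names all members. From each of the 8 pathway lists it names up to 3 genes with the smallest adjusted p in the mean of doubled minus control, and the 5 genes most like FST and ID1. Some genes that this rule picks are not reported here. Alternatives were DESeq2 1.42.0, RLE size factors, no filter, a stricter filter (10 counts in 6 libraries), limma 3.58.1 on log2(TPM + 1) of the deposited TPM, a replicate block, each library left out in turn and, added after the data were seen, both noisier libraries left out. Whole-genome DNA libraries were not analysed here.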

Additional observations from a re-analysis of the deposited data

Results flagged for a closer look

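Values here are MDA-MB-231 minus HCC1806 on the log2 scale. The change against the control differed between the lines in 8 cases among the members, of which the FST case was not tested. Of the 9 members other than FST, 3 were called for fusion, 2 for slippage and 2 for cytokinesis failure. For fusion these were ID1 (-0.851, edgeR adjusted p = 2.3e-19), ID3 (-0.988, adjusted p = 3.75e-11) and SMAD6 (-1.67, adjusted p = 0.00468), all lower in MDA-MB-231 fusion cells and not in HCC1806 fusion cells. FST differed by -0.893 in fusion, since all 3 HCC1806 fusion libraries lay above their controls and all 3 MDA-MB-231 fusion libraries below theirs. That difference was not tested, because FST was chosen on its change. For slippage they were INHBB (-1.12, adjusted p = 4.22e-07) and TGFBI (1.42, adjusted p = 3.25e-13), and for cytokinesis failure INHBB (-0.806, adjusted p = 0.000218) and TGFBI (0.764, adjusted p = 0.0001). SMAD6 rests on 4 to 29 counts per MDA-MB-231 library of those groups and no longer passed without MDA-MB-231 control replicate 3 (-1.23, adjusted p = 0.0918). Over all 12563 genes tested for such a difference, edgeR called 1513 for fusion, 820 for cytokinesis failure (6.53%) and 445 for slippage (3.54%), each in either direction.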

How the results depend on the processing

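Over 181 gene results and 2561 alternative values, 106 results changed under no alternative. These totals include FST, although it is a description here. Its changes against controls, and their differences between the lines, were scored by sign and size only. In the other comparisons FST was scored by the threshold like the other genes. RLE size factors left 181 of 181 results unchanged, the stricter filter 179 of 180 and no filter 172 of 181 (7 calls lost, 2 gained). DESeq2 lost 30 calls of 175, and limma on log2(TPM + 1) lost 39 of 181 and gained 9. Leaving out 1 library at a time changed 150 of 1380 values (133 calls lost, 6 gained, 11 changes of sign). Leaving out both noisier MDA-MB-231 libraries lost 3 calls of 102 and gained 3. The cause of these changes was not tested. Low counts limit INHBA, ID2 and SMAD6 in MDA-MB-231, SMAD7 in both lines and BAMBI in HCC1806.

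FST is a description, so counts for HCC1806 fusion minus slippage, where it was among the calls, are left out. Members called in HCC1806 with DESeq2 were 1 in fusion against control (4 with edgeR), 3 in the mean of doubled populations (5) and 2 in slippage minus cytokinesis failure (5, or 3 with no filter). With limma they were 2, 3 and 2 in the same order, and 0 in slippage against control (2 with edgeR and with DESeq2). In MDA-MB-231 limma called 1 in the mean (3 with edgeR), 7 in fusion minus cytokinesis failure (4) and 1 in slippage minus cytokinesis failure (3). With 1 library left out, counts ranged from 1 to 3 in HCC1806 fusion, 1 to 2 in slippage, 3 to 6 in the mean, 1 to 4 in slippage minus cytokinesis failure, and 1 to 4 in the MDA-MB-231 mean. FST changed sign with limma in HCC1806 slippage minus cytokinesis failure (-0.12, against 0.13) and in the line difference for cytokinesis failure (-0.21, against 0.0073). With 1 library left out, FST ranged from -0.082 to 0.011 in MDA-MB-231 fusion minus cytokinesis failure, from -0.0087 to 0.11 in the line difference for slippage and from -0.035 to 0.053 in that for cytokinesis failure.

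Over all genes, DESeq2 called 37.2% to 94.4% as many as edgeR in 18 comparisons and limma 18.7% to 98.0%. For HCC1806 fusion, slippage and cytokinesis failure against control, edgeR called 1247, 382 and 1950, and DESeq2 648, 142 and 975. For MDA-MB-231 edgeR called 1993, 706 and 530, and DESeq2 1197, 343 and 302.

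Replicate numbers did not pair the samples: deviations of same-numbered samples correlated at -0.097 to 0.077 in HCC1806 and -0.19 to 0.088 in MDA-MB-231. With the replicate number as a block, 176 of 181 results were unchanged and 5 calls were lost. Among these were TGFBI in the MDA-MB-231 mean (0.32, edgeR adjusted p = 0.0702) and SKI in HCC1806 cytokinesis failure (-0.22, adjusted p = 0.0507).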
